A study of Mus musculus with 15 samples.

Results

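Sterols leave the hepatocyte in part by a small number of ATP-binding cassette (ABC) transporters. In mouse liver in which Gata4 had been targeted, 8 genes of this kind were examined. The genes were Abcg5 and Abcg8, which together secrete sterols into bile, Abca1 and Abcg1, which load cholesterol onto high-density lipoprotein (HDL), and the relatives Abca2, Abca6, Abca7 and Abcg2. They were picked by name, as rows of the authors' deposited table with that mouse symbol, and all 8 were found once each among its 24965 genes. All 8 had an adjusted p in the table, as did 13335 genes in all.

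The livers came from male C57BL/6J mice that all carried floxed Gata4 alleles (Gata4fl/fl). Injection was at 8 weeks of age, with an adeno-associated viral vector (AAV8). It either carried Cre driven by the hepatocyte promoter Tbg (Gata4LKO, here knockout) or was empty (control). Tissue was frozen 7 days later, at 9 weeks of age, after an overnight fast of 12 h or after a daytime fast of 12 h with overnight refeeding for 12 h on a diet of 69% sucrose and 10% fat. Fasted samples numbered 4 control and 4 knockout, and refed samples 4 control and 3 knockout. The control virus was empty, so the presence of Cre and the knockout label cannot be told apart. The titles within a group share a number of unstated meaning, so a shared cage, litter or day and the group cannot be told apart either. No label states outright that each sample is a separate mouse, so p-values measure the spread between these samples.

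The table holds 1 comparison, read here as knockout minus control in fasted livers, 4 against 4, within a model of all 15 libraries (the basis is given with the processing). The header names no groups, and the effect of refeeding in control livers, 4 against 4, matched the table's arithmetic equally well, so every direction rests on the table being named for genotype. Values of single livers, the refed livers and the effect of feeding were not analysed here. Gata4 itself was not lower in the livers labelled knockout: its log2 fold change was 0.31 ± 0.15 (SE) with an adjusted p of 0.361 in the authors' deposited table (DESeq2 Wald test). Which exons were floxed is not in the labels, so this whole-gene value is no check on a deletion of some of them. Directions below are therefore of livers labelled knockout against livers labelled control. The tissue carried its labelled identity, with hepatocyte markers such as Alb at a mean of 1.11e+06 normalized counts in the authors' deposited table.

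ABC transporters use ATP, bound at paired sites in the cytosol, to move lipids and other substrates across membranes. ABCG5 and ABCG8 are partner proteins that work only as a pair, at the canalicular membrane of hepatocytes and in the gut, where they secrete cholesterol and plant sterols. Their loss causes sitosterolemia. ABCA1 hands cholesterol and phospholipid to lipid-poor apolipoprotein A-I, the step that starts HDL, and the liver is a main source of HDL. Oxysterols act on the nuclear receptors LXRα and LXRβ (Nr1h3 and Nr1h2), which induce Abcg5, Abcg8, Abca1 and Abcg1. The stretch between the human ABCG5 and ABCG8 genes has been described to respond to GATA factors together with HNF4A.

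Abcg5 and Abcg8 lie head to head on chromosome 17 and share the DNA between their start sites, which is shown here because both genes fell. In RefSeq's annotation of GRCm38.p6 (the build also called mm10), Abcg5 starts at 84683011 on the minus strand and Abcg8 at 84683121 on the plus strand. The 109 bases between them, chr17:84683012-84683120, overlap no annotated exon and lie in an intron of an alternative Abcg8 transcript that begins inside Abcg5. Below, the stretch is on the plus strand, reading from Abcg5 towards Abcg8. Capitals mark the usual words of GATA factors on either strand, which are AGATAA, its variant AGATAG, the form TGATAA and its variant TGATAG. The 109 bases upstream of Abca1, chr4:53159896-53160004, are given on its own minus strand for comparison, since Abca1 was the other gene that fell.
Abcg5-Abcg8 shared stretch: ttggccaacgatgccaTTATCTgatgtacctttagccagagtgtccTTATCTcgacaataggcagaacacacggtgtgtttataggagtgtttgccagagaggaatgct
Abca1 upstream: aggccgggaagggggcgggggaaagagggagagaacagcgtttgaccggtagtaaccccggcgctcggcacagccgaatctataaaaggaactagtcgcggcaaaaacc

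The shared stretch held 2 GATA words, both AGATAA read on the minus strand, which end 88 and 58 bases before the Abcg8 start. Another AGATAA lies at 84682994 to 84682999, in the untranslated start of the first Abcg5 exon. Among 32851 RefSeq promoters, 1.23% held at least 2 GATA words in the 109 bases before their start, and 11.5% held at least 1. Over the whole promoter window, from 250 bases before the start to 50 after, Abcg5 and the Abcg8 start beside it each held 3 (the same words), against 1.76% of promoters with at least 3. Of the 8 genes 6 had a RefSeq promoter in the table used, with 9 windows in all. The windows of the alternative Abcg8 start and of Abca1, Abca2, Abca7 and Abcg2 held 0, where 29.8% of all promoters held at least 1. The word AGGTCA, bound by nuclear receptors such as LXR, stood in 2 of the 3 Abcg2 windows and in 0 windows of Abcg5, Abcg8, Abca1, Abca2 and Abca7, against 16.3% of promoters. The strict DR4 motif, an exact direct repeat of that word with 4 bases between the copies, was in 0 of these windows and in 0.0152% of all promoters. It is an idealized form of LXR elements. Imperfect repeats were not searched for, so a count of 0 does not show that a window lacks an LXR element. These matches describe letters only, and binding was not measured.

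Of the 8 transporter genes 3 fell in livers labelled knockout, 0 rose and 5 were not called. A gene is called when its adjusted p is under 0.05 (Wald test of DESeq2 as run by the authors, Benjamini-Hochberg adjustment). The 3 were Abcg5, Abcg8 and Abca1. Across all 13335 tested genes 1.60% were called lower and 0.585% higher, 2.19% in all. The median log2 fold change of the 8 genes was -0.01, beside 0.01 over all tested genes. At an unadjusted p under 0.05 there were 4 of the 8, against 11.4% of tested genes. These are RNA levels of whole liver, in which fewer cells of a type and less RNA per cell cannot be told apart.

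**Figure D1:**
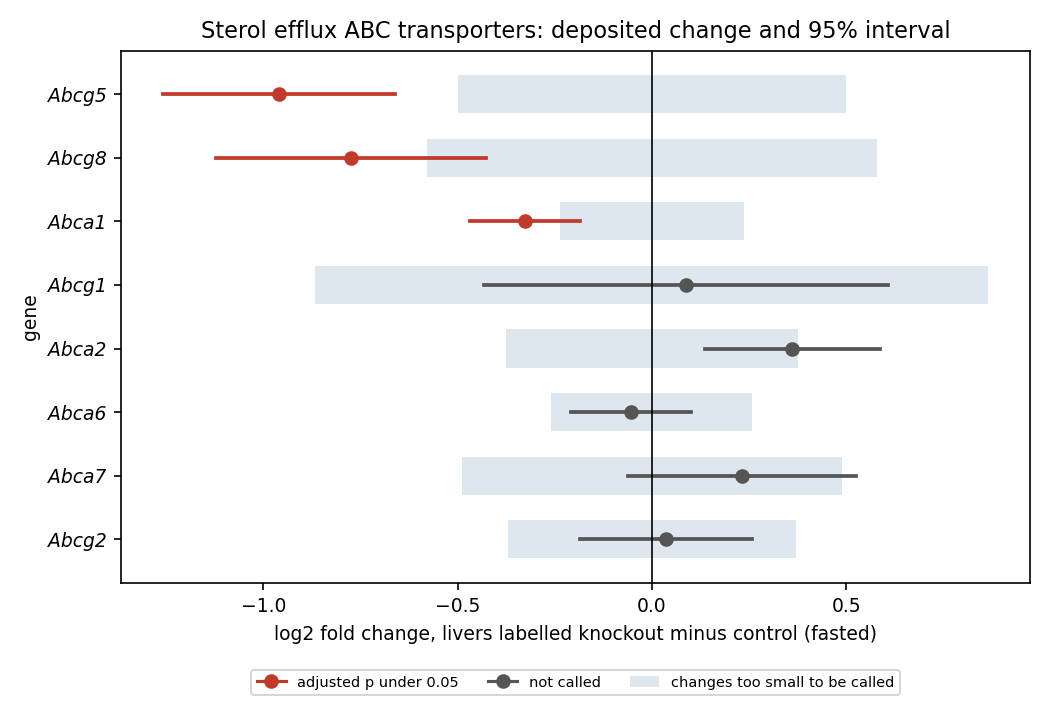
Log2 fold change of each transporter gene in livers labelled knockout minus control (x axis, log2 units), with points for the deposited estimate, lines for its 95% interval and pale bars for changes too small to be called at that gene's standard error. Abcg5, Abcg8 and Abca1 (red) lie below 0 and outside their bars, at -0.96, -0.77 and -0.33, while the other 5 genes (grey) lie inside theirs.

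The biliary exporters showed the largest changes of the 8 genes. Abcg5 (ENSMUSG00000040505, chromosome 17, 84658234 to 84683011, minus strand, mm10) averaged 664.1 normalized counts over the 15 libraries, with a log2 fold change of -0.96 ± 0.15 (SE; from the authors' deposited table). That is 0.514 times the control level, with a 95% interval from 0.418 to 0.632, and the deposited adjusted p was 2.00e-07 (DESeq2). By the size of its Wald statistic Abcg5 ranked 21st of the 13335 tested genes. Abcg8 (ENSMUSG00000024254, chromosome 17, 84676302 to 84700333, plus strand) averaged 949.9 normalized counts, with a log2 fold change of -0.77 ± 0.18 (SE; from the authors' deposited table). Its level was 0.585 times control, from 0.460 to 0.744, with a deposited adjusted p of 0.00162 (DESeq2), and it ranked 102nd. The intervals of the 2 partners overlapped, from -1.26 to -0.66 for Abcg5 and from -1.12 to -0.43 for Abcg8 on the log2 scale. Whether they fell by different amounts was not tested, because the table gives no covariance between genes.

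The 2 exporter genes share few exonic bases. In GENCODE M21 an alternative Abcg8 transcript begins inside Abcg5 on the opposite strand, and 82 bases are exonic in both genes. The libraries were stranded, while the strand setting of the count is not given in the sources used here, so reads on those 82 bases could have been counted for either gene. Per length, the 2 genes had close means, 282 normalized counts per kb for Abcg5 and 259 for Abcg8, each divided by the length of its principal transcript (2351 and 3667 bases).

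The tested genes beside the pair were not called. Within 100 kb of either exporter, 2 other genes were tested and neither was called. Lrpprc, a regulator of mitochondrial RNA that lies 4914 bases beyond the Abcg8 end, had a log2 fold change of -0.05 ± 0.06 (SE) at a mean of 2917 normalized counts in the authors' deposited table. Its 95% interval, from -0.17 to 0.07, did not reach those of the exporters. Plekhh2 stood at 0.42 ± 0.30 (SE) at 27.4 normalized counts on average, by the authors' deposited table. Dync2li1, of the cilium transport motor and the nearest gene to Abcg5 other than Abcg8, had a mean of 6.57 normalized counts and no adjusted p in the authors' deposited table. The differences between these genes and the exporters were not tested.

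**Figure D2:**
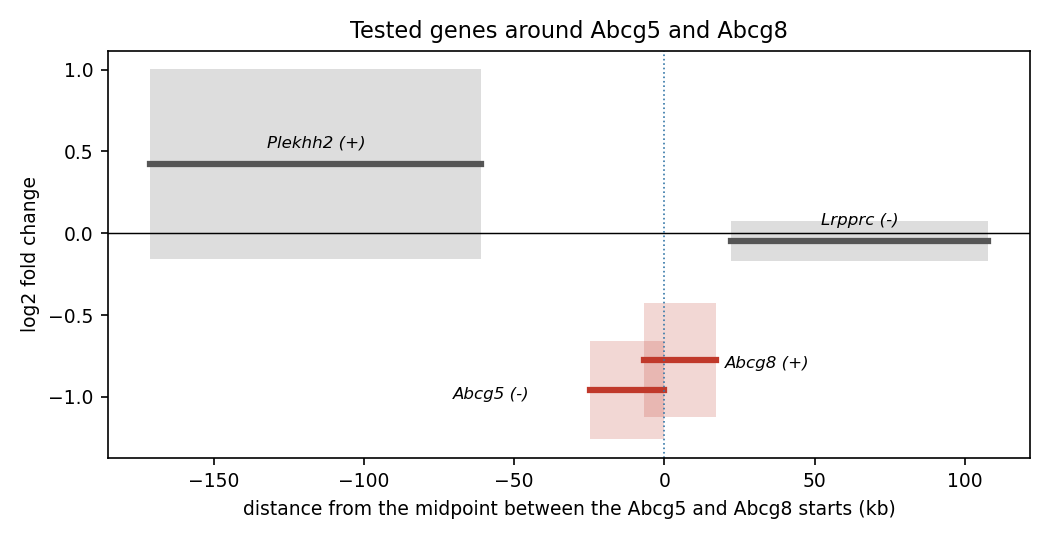
Tested genes around the exporter pair, placed by distance in kb from the midpoint between the Abcg5 and Abcg8 starts (x axis), at their deposited log2 fold change (y axis), with the strand in brackets and shading for the 95% interval. Abcg5 and Abcg8 (red) lie at -0.96 and -0.77, while Lrpprc and Plekhh2 (grey) lie at -0.05 and 0.42 with intervals that include 0.

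Of the HDL pumps, Abca1 fell by a small but precisely measured amount and Abcg1, at low counts, was measured imprecisely. Abca1 (ENSMUSG00000015243, chromosome 4, 53030787 to 53159895, minus strand) averaged 5008 normalized counts, with a log2 fold change of -0.33 ± 0.07 (SE; from the authors' deposited table). This was 0.797 times control, from 0.722 to 0.879, with a deposited adjusted p of 0.000917 (DESeq2) and rank 88. Its Wald statistic was slightly larger than that of Abcg8, although its change was smaller, because its standard error was smaller. The interval of Abca1, from -0.47 to -0.19, did not overlap that of Abcg5 and overlapped that of Abcg8. Abcg1 (ENSMUSG00000024030, chromosome 17, 31057675 to 31117988), which passes cholesterol to mature HDL and is best known from macrophages, averaged 52.1 normalized counts, with a log2 fold change of 0.09 ± 0.27 (SE; from the authors' deposited table). Its interval ran from -0.43 to 0.61, which includes the estimate of Abca1 but not that of Abcg8. At its standard error an estimate would have needed to reach 0.87 in size to be called. Near Abca1, the 1 tested gene within 100 kb, Nipsnap3b, stood at -0.04 ± 0.07 (SE; the authors' deposited table).

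The calls of Abcg8 and Abca1 depended on the reference distribution and on the adjustment, and that of Abcg5 did not. When the deposited Wald statistics were referred to a t distribution with 11 residual degrees of freedom, the adjusted p was 0.0357 for Abcg5, 0.145 for Abcg8 and 0.130 for Abca1. With Holm's adjustment, Abcg8 and Abca1 stood at 0.165 and 0.0802. Under the other 4 settings tried, all 3 genes were called.

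The relatives did not pass the test. Abca2 (ENSMUSG00000026944, chromosome 2, 25428703 to 25448540), an endolysosomal transporter tied to sterol trafficking and best known from myelin, came nearest, with a log2 fold change of 0.36 ± 0.12 (SE), an unadjusted p of 0.00171 and an adjusted p of 0.0667 in the authors' deposited table (DESeq2). Its 95% interval, 0.14 to 0.59, lay above 0, and over the alternatives its adjusted p ran from 0.0565 to 1. Abca7 (ENSMUSG00000035722, chromosome 10, 79996494 to 80015572), a phospholipid transporter linked to phagocytosis, was at 0.23 ± 0.15 (SE) with an adjusted p of 0.613 in the authors' deposited table (DESeq2). Abca6 (ENSMUSG00000044749, chromosome 11, 110176820 to 110251776), of a cluster of related lipid transporter genes, was at -0.05 ± 0.08 (SE) with an adjusted p of 0.898 in the authors' deposited table (DESeq2). Abcg2 (ENSMUSG00000029802, chromosome 6, 58584523 to 58695676), an exporter of drugs and urate at the canaliculus, was at 0.04 ± 0.11 (SE) with an adjusted p of 0.960 in the authors' deposited table (DESeq2).

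The intervals show how far these 4 genes could have moved. For Abca6 the interval, from -0.21 to 0.10, and for Abcg2, from -0.19 to 0.26, did not overlap the intervals of Abcg5 and Abcg8. Both did overlap the interval of Abca1, from -0.47 to -0.19, though barely for Abcg2. For Abca7 it ran from -0.06 to 0.52, above all 3 genes that fell. Abca6 lies beside Abca5 and Abca9, and the 3 tested neighbours within 100 kb, which are all ABC genes of the same cluster, had log2 fold changes from -0.21 to 0.11 in the authors' deposited table, with 0 called. Genes of that cluster resemble each other, as do Abcg2 and Abcg3, and reads shared between such copies make their values uncertain to that extent.

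The 8 genes covered a wide range of abundance. In mean normalized counts per kb of principal transcript, over all 15 libraries, Abca6 stood highest at 1170, followed by Abca1 at 488, Abcg2 at 308, Abcg5 at 282, Abcg8 at 259, Abca2 at 118, Abca7 at 17.6 and Abcg1 at 8.93. These are levels, averaged over fasted and refed livers of both labels, and without values per liver the spread behind this order is unknown. The changes did not follow this order, since the genes that fell had levels between those of Abca6 and Abca2.

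**Figure D3:**
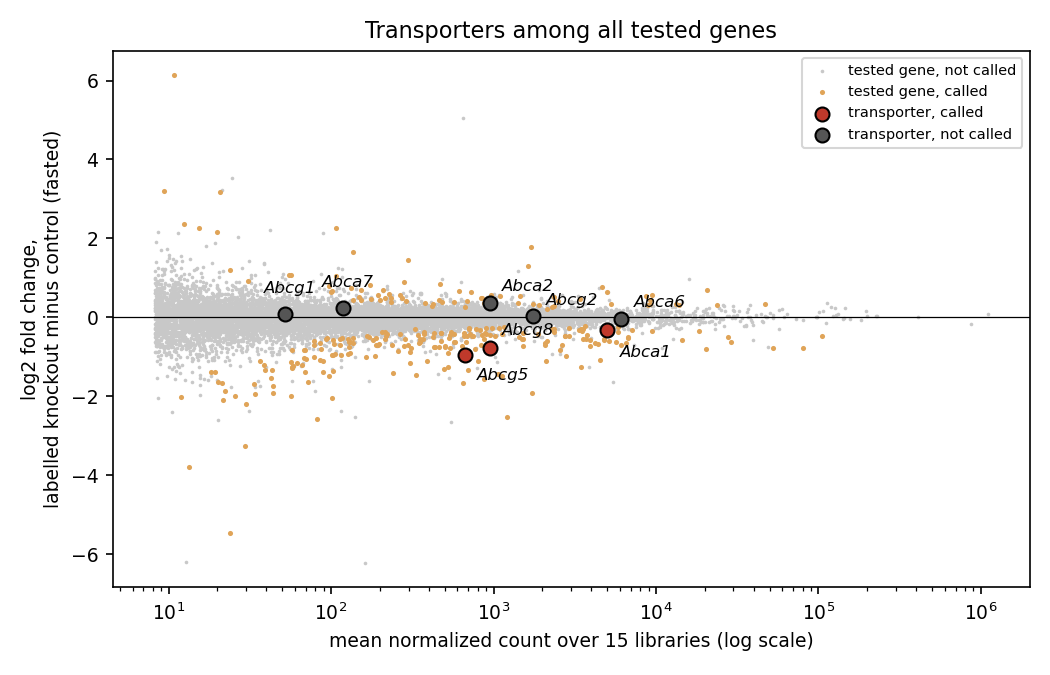
Mean normalized count over the 15 libraries (x axis, log scale) against deposited log2 fold change (y axis) for all 13335 tested genes, with called genes in orange and the transporter genes as large points. Abcg5, Abcg8 and Abca1 (red) lie at means of 664.1, 949.9 and 5008 among the called genes below 0, and Abcg1 lies at a mean of 52.1 among widely scattered estimates.

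Counting noise was a minor part of the error for most of the 8 genes. If all libraries had the mean count, counting alone would give Abcg5 a standard error of 0.04, or 6.72% of the variance of its estimate, and for Abcg8 and Abca1 the shares were 3.49% and 3.97%. The rest is the spread between samples as the authors' model of all 15 libraries estimated it, not a spread measured among the compared samples. Taken as 4 against 4 libraries, it equals a coefficient of variation of 14.5% for Abcg5, 17.1% for Abcg8 and 6.95% for Abca1. The median was 9.09% over the 8875 tested genes with a mean of at least 100. Abcg1 and Abca7, the least abundant members, had counting shares of 28.4% and 39.3%.

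Apart from the 8 members, 32 ABC genes of subfamilies A to G were tested, of which 1 rose, 0 fell and 31 did not pass. Their log2 fold changes ran from -0.64 to 1.67 with a median of 0.07, and 5 of the 32 had a raw p under 0.05. Of all tested genes, 2.19% were called and 11.4% had such a p. The gene that rose was Abcc4, a basolateral export pump of conjugated compounds and bile acids, at 1.67 ± 0.24 (SE) with an adjusted p of 7.15e-09 in the authors' deposited table (DESeq2). In subfamily G the only other tested gene, Abcg3, had a log2 fold change of -0.64 ± 0.32 (SE) at a mean of 24.7 normalized counts in the authors' deposited table and was uncalled. In subfamily A, 6 other genes were tested, with 0 called by DESeq2 in the authors' table and 1 with a raw p under 0.05. That gene was Abca14, at 1.58 ± 0.58 (SE) with a mean of 10.04 normalized counts in the authors' deposited table, and it was picked out once its value was known.

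**Figure D4:**
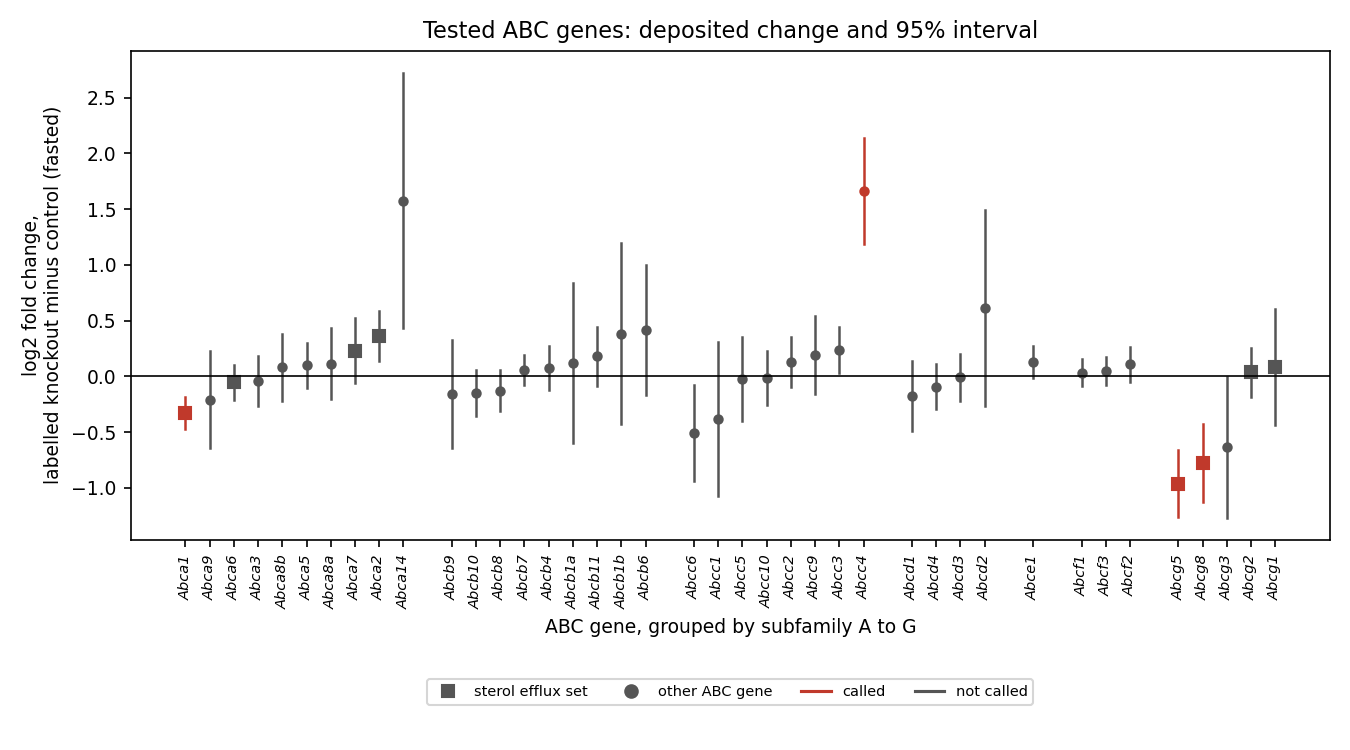
Deposited log2 fold change (y axis) with its 95% interval for each of the 40 tested ABC genes (x axis), grouped by subfamily A to G, with squares for the 8 members, circles for the other genes and red for called genes. Red marks below 0 belong to Abca1, Abcg5 and Abcg8, and the 1 red mark above 0 belongs to Abcc4 at 1.67.

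Other listed genes of canalicular lipid and bile transport were not called lower. Of 12 tested genes of this list other than the members, 0 fell and 1 rose, which was Abcc4, with a median of 0.10. The list mixes canalicular genes with others, such as the basolateral Abcc4 and Abcc6, so its count and median are not of canalicular genes alone. Abcb4, the phosphatidylcholine floppase that works beside the sterol exporters in bile formation, had a log2 fold change of 0.07 ± 0.10 (SE; from the authors' deposited table), and Abcb11, the bile salt export pump, 0.18 ± 0.13 (SE). Neither was called, and both were picked out once their values were known. The uncalled gene with the largest Wald statistic was Abcc6, a pump that releases ATP from hepatocytes, at -0.51 ± 0.22 (SE; the authors' deposited table). The list for assembly, trafficking and turnover of ABC exporters held 11 tested genes, such as the folding chaperones Canx and Calr. By the authors' DESeq2 test 0 were called and 1 had an unadjusted p under 0.05, the protease gene Capn1. It stood at -0.31 ± 0.12 (SE; the authors' deposited table). Over all tested genes 11.4% had such a p, 1.60% were called lower and 0.585% higher, which holds beside the lists below too.

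The LXR receptors and most other LXR targets were not called. Nr1h3 had a log2 fold change of 0.04 ± 0.07 (SE) and Nr1h2 of 0.01 ± 0.09 (SE; the authors' deposited table), with 95% intervals from -0.09 to 0.17 and from -0.17 to 0.18. Among 12 tested LXR targets other than the transporters, 1 fell, 0 rose and 11 did not pass, with a median of 0.03. The gene that fell was Srebf1, the lipogenic regulator, at -0.72 ± 0.21 (SE; the authors' deposited table), and its call was lost when p was adjusted over every gene with a p, with the t distribution and with Holm's adjustment. The nearest of the rest was Pltp, the phospholipid transfer protein gene, at -0.33 ± 0.21 (SE; the authors' deposited table). Some of the uncalled targets were measured imprecisely. The 95% interval of Scd1 ran from -0.87 to 0.98 and that of Cyp7a1 from -0.74 to 0.79, both picked out once their values were known. The interval of Scd1 included a fall as large as the estimate of Abcg8, and that of Cyp7a1 stopped just short of it. Counting the transporters, 4 of 16 genes of this list fell, and 3 of those 4 were the transporters themselves.

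Among 21 other tested regulators of sterol export, 2 fell, 0 rose and 19 did not pass, with a median of 0.08, and neither call held with the t distribution or with Holm's adjustment. Zfpm1, which encodes the GATA cofactor FOG1, was at -0.72 ± 0.16 (SE; the authors' deposited table), and Srebf2, the master regulator of sterol synthesis and uptake, at -0.46 ± 0.12 (SE). Gata6, the closest liver relative of Gata4, was at 0.18 ± 0.13 (SE) and Hnf4a at 0.10 ± 0.07 (SE; the authors' deposited table), and neither was called. Zfpm2, a second FOG gene, had the largest Wald statistic of the uncalled regulators, with a log2 fold change of 1.08 ± 0.44 (SE) at a mean of 11.04 normalized counts in the authors' deposited table.

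Among 11 tested HDL genes other than the pumps, 1 fell and 0 rose, 10 were not called, and the median was -0.01. The gene that fell was Apoa1, whose protein accepts lipid from ABCA1, at -0.48 ± 0.11 (SE; the authors' deposited table), a call lost under both stricter rules, the t distribution and Holm's adjustment. Lipg, the endothelial lipase gene, was at -0.88 ± 0.38 (SE; the authors' deposited table), uncalled.

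Genes that make, take up and store sterol in the hepatocyte were counted beside the exporters. Of 20 tested genes of cholesterol synthesis 10 fell, 0 rose and 10 did not pass, with a median of -0.58. With the t distribution 3 were called and with Holm's adjustment 5. The 10 were Mvk, Pmvk, Mvd, Idi1, Fdps, Fdft1, Sqle, Lss, Cyp51 and Msmo1, from -0.45 ± 0.11 (SE) for Pmvk to -1.46 ± 0.24 (SE) for Fdps in the authors' deposited table, and Dhcr7, at -0.41 ± 0.13 (SE), just missed the threshold. Of 19 tested genes of sterol trafficking and storage 4 fell and 0 rose, with a median of -0.07, and 1 and 2 were called under those stricter rules. Among them were the sterol carrier Stard4 at -0.71 ± 0.12 and Soat2, which esterifies cholesterol, at -0.56 ± 0.12 (SE; the authors' deposited table). Npc1, the lysosomal cholesterol exporter, was at -0.40 ± 0.13 (SE; the authors' deposited table), uncalled.

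Conversion to bile acids, another route of sterol out of the liver, held 11 tested genes. Of these 2 fell, 0 rose and 9 were not called, with a median of -0.05. With the t distribution 0 were called and with Holm's adjustment 1. The 2 were Baat, which conjugates bile acids, at -0.55 ± 0.10 (SE), and Cyp2c70, which hydroxylates them, at -0.65 ± 0.17 (SE; the authors' deposited table). Cyp39a1, an oxysterol hydroxylase, was at 0.36 ± 0.19 (SE; the authors' deposited table), uncalled.

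**Figure D5:**
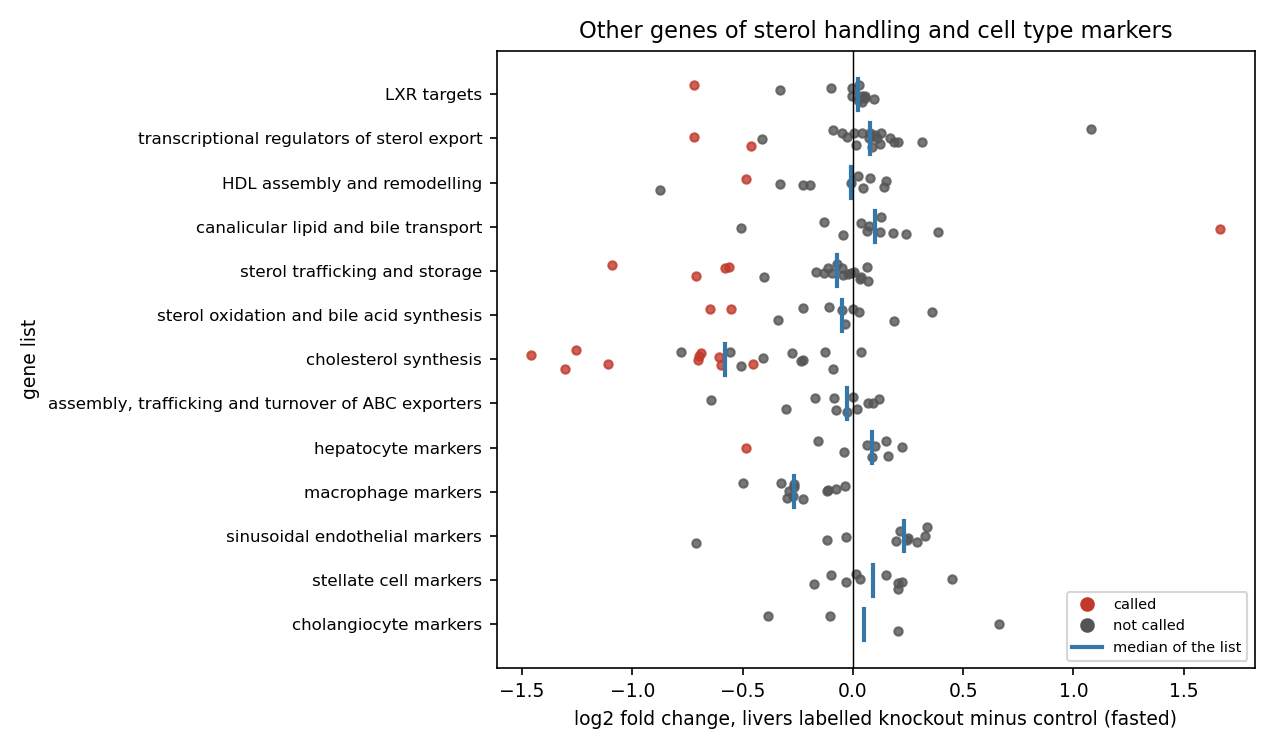
Deposited log2 fold change (x axis) of every tested gene of each list other than the 8 transporters, with red points for called genes, grey points for the others and a blue bar at the list's median (points are spread vertically for legibility only). Cholesterol synthesis has its median at -0.58, and the red point far to the right is Abcc4 at 1.67.

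Markers of other liver cells were followed because Abca1, Abcg1 and Abca7 are also expressed in macrophages and endothelium. Of 12 tested macrophage markers 0 were called by the authors' DESeq2 test and 1 had an unadjusted p under 0.05, yet all 12 estimates were negative, with a median of -0.27. The largest Wald statistic was that of Clec4f, a Kupffer cell lectin, at -0.27 ± 0.13 (SE; the authors' deposited table). Of 10 tested sinusoidal endothelial markers 0 were called by the authors' DESeq2 test and 5 had an unadjusted p under 0.05, with 7 positive and 3 negative estimates and a median of 0.23. Across all tested genes 11.4% had such a p. Of the 5, only Lyve1 was negative, with the largest change in the list, -0.71 ± 0.33 (SE), at a mean of 53.4 normalized counts. The others were positive, with Dnase1l3, of the largest Wald statistic, at 0.34 ± 0.12 (SE; the authors' deposited table). Lyve1 was picked out once its value was known. The median of the macrophage list was near the change of Abca1, and the part of such cells in its fall was not tested. Stellate cell markers (10 tested, median 0.09, with Hgf at 0.45 ± 0.26) and cholangiocyte markers (4 tested of 8, median 0.05, with Krt19 at 0.66 ± 0.57) had 0 called and 0 with a raw p under 0.05 by DESeq2 in the authors' deposited table. Summed mean normalized counts were 2626 for the macrophage, 4068 for the endothelial, 4013 for the stellate and 554 for the cholangiocyte list, averages over all 15 libraries that are not given per group.

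Of 9 tested hepatocyte markers 1 fell, Apoa1, with a median of 0.09 for the list, and Apob stood at 0.16 ± 0.07 (SE; the authors' deposited table). Of the 9 markers 3 had a raw p under 0.05, against 11.4% of all tested genes. Apoa1 was not called with the t distribution or with Holm's adjustment.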

How the data were processed

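RNA of 15 mouse livers was sequenced after TRIzol and RNeasy extraction with a stranded KAPA library kit, per the labels' protocols. The tools FastQC, STAR 2.6.0c and DESeq2 and the build mm10 come from the submitters' processing notes. Which program counted the reads, and on which annotation, is not given in the sources used here. A table deposited by the authors lists 24965 genes without values of single samples. Its mean column is, per the file headers, a signal, counts divided by size factors and averaged by the authors, and its effect a log2 fold change with SE by the authors. The deposited Wald score is that ratio, and deposited p-values, adjusted by Benjamini-Hochberg over 13335 genes, follow from it. Nothing was refitted.

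The header names no groups. Many genes share the same lowest means, those of a single read in a single library. Their inverses gave relative size factors from 0.912 to 1.11. A negative binomial model with a ridge penalty of 1e-06 and means held at 0.5 or above was fitted to such reads under 44 readings, and 2 matched the deposited estimates and errors within 1.36e-09, the next within 4.37e-05. Both are interaction models with fasted control as reference: the genotype effect when fasted (knockout minus control), or the feeding effect in controls (refed minus fasted). The genotype effect was taken, since the table's name gives genotype. Pck1, which feeding controls and which was picked out once its value was known, was uncalled (0.01 ± 0.82, SE; the authors' deposited table). Every direction rests on this choice.

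Members and lists were chosen with earlier results of these data known. Intervals are normal 95% intervals. The smallest callable change is the SE times 3.27, the smallest absolute Wald statistic among called genes. The text names all members, Gata4, Gata6, Nr1h3, Nr1h2, and called genes of the lists and of the ABC family. By the same rule it names the uncalled gene with the largest Wald statistic of each list, and tested neighbours within 100 kb of called members. Named besides were Alb, Hnf4a, Abca5, Abca9, Abcg3, Dync2li1, Canx and Calr, and the genes marked as picked out or named once their values were known. Some genes that the rule names are not reported here. Of the hepatocyte markers considered, 1 symbol was not in the table. Gene positions and lengths are from GENCODE M21, promoters from RefSeq (GRCm38.p6). Python 3.11.15, pandas 2.3.3, scipy 1.17.1 and statsmodels 0.14.6 were used, and scripts were tested on simulated data.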

Additional observations from a re-analysis of the deposited data

How the results depend on the processing

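Alternatives were adjustment over every gene with a p, or only where the mean was 10 or more, or 100 or more, a t reference distribution, Holm's adjustment, and centring on the median of tested genes. Apart from the centring, which moved each gene by the same small amount, these change p-values and not the estimates, so they do not test any direction. With the t distribution 1 of the 8 transporters was called lower, and 38 of all genes (31 lower, 7 higher); with Holm's adjustment these were 1, 75, 60 and 15. The counts of 1, 2, 1, 4, 2, 10 and 1 called genes, other than the transporters, among LXR targets, regulators, HDL, trafficking, bile acid synthesis, cholesterol synthesis and hepatocyte lists became 0, 0, 0, 1, 0, 3 and 0 with the t distribution and 0, 0, 0, 2, 1, 5 and 0 with Holm's adjustment. The HDL and hepatocyte counts are of the same gene, Apoa1. Adjusted over every gene with a p, 0 of the LXR targets other than the transporters were called, and all 3 transporters that fell still were. Both rules are stricter by construction. Over the 6 alternatives the adjusted p of Abcg5 ran from 1.4e-07 to 0.0357, of Abcg8 from 0.00127 to 0.165 and of Abca1 from 0.000628 to 0.130. No paired analysis was possible because the table holds no values per sample, and leaving out single livers was not run for the same reason. No transporter symbol repeats, so the choice between repeated rows gave no value. Depth per library is unknown beyond the relative size factors.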

Other observations

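Beside the uncalled Abcg1, a gene 7318 bases from its end was called. Tff3, a trefoil peptide gene of mucous epithelia, had a log2 fold change of -1.34 ± 0.31 (SE) at a mean of 39.4 normalized counts, with an adjusted p of 0.00229 in the authors' deposited table (DESeq2). It was named after its value was seen. Of the 11 tested neighbours of Abca2 and the 10 of Abca7 within 100 kb, 0 were called by the authors' DESeq2 test, with log2 fold changes from -0.61 to 0.41 and from -0.13 to 0.30.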
